A study of Zea mays with 6 samples.

Results

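Expansins and xyloglucan endotransglucosylase/hydrolases (XTHs) remodel the plant cell wall while cells elongate, and 23 of the 5546 genes in the deposited table of maize nodes carry a protein description of either kind. They were chosen by that description alone, as genes described as an expansin, a xyloglucan endotransglucosylase or endotransglycosylase, a xyloglucan:xyloglucosyl transferase or the brassinosteroid-regulated protein BRU1. By their descriptions 5 are alpha-expansins, 7 are beta-expansins, 2 are expansin-like genes and 9 are XTH genes, and none carries the BRU1 name. A further 17 genes have no such description but a KEGG orthology of an expansin (10 genes) or of a xyloglucan:xyloglucosyl transferase (7 genes), and they are described separately below the named genes.

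Expansins are wall proteins that loosen the contacts between wall polymers at acid pH without cutting them. Alpha-expansins act best on walls rich in xyloglucan, whereas beta-expansins form a large family in grasses, whose walls hold little xyloglucan and much arabinoxylan and mixed-linkage glucan. XTH enzymes cut a xyloglucan chain and join the cut end to another chain or to water, so that they can loosen or strengthen the wall, and expansin-like proteins share the expansin fold without a wall-loosening activity that is known.

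WT was the inbred line B73, and zmte1-2 was a dwarf line from an EMS-mutagenized population, isolated as zm66 and backcrossed to B73, with a premature stop codon in the first exon of ZmTE1, which encodes a Mei2-like RNA binding protein. It is a single allele, so other EMS changes that remain in the line cannot be told apart from the loss of ZmTE1. Plants of both genotypes grew in the field for 28 days without other treatment, and RNA was taken from 3 nodes of the stem, together with internodes by the labels and as nodes alone by the Methods. There were 3 libraries of each genotype, numbered 1 to 3 in the labels and neither the meaning of the number (replicate or node position) nor their origin from separate plants is stated. The p-values below therefore measure only the spread between these libraries, and in such mixed tissue fewer cells of a type and less RNA per cell cannot be told apart.

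Values are FPKM, that is fragments counted for a gene per kilobase of its length and relative to library size, which sum to between 74348 and 88628 per library over the listed genes. The mutated gene, ZmTE1 (GRMZM2G085113, chromosome 3, 165216844 to 165220769), was listed at 0.51, 1.19 and 1 FPKM in WT and at 0.33, 0.1 and 0.49 FPKM in zmte1-2, too low for the test used here. Of the 6 libraries, zmte1-2 2 stood apart, since log2 values correlated across genes at 0.944 between zmte1-2 1 and 3 but at 0.782 and 0.699 between these and zmte1-2 2, as a description over genes, which are not replicates. Differences were tested with limma on log2(FPKM + 0.5) in the 3987 genes with at least 1 FPKM in at least 3 libraries. P-values were adjusted by the Benjamini-Hochberg method over these genes, and those with an adjusted p under 0.05 were called. Because every listed gene had been selected by the authors on these very libraries, the share of false calls is not known from an adjusted p. By this rule 34.2% of all tested genes were called lower and 6.02% higher in zmte1-2, and the share of members called is read against these values.

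The wall-remodelling genes that passed the test were lower in zmte1-2, and most tested members did not pass. Of the 23 members 16 were tested, and 5 of them fell, namely XTH26, XTH28, XTH23, beta-expansin 3 and the Expansin-B4 gene GRMZM2G103672. None rose by limma, at the adjusted threshold or at an unadjusted p under 0.05, where 11.1% of all tested genes were higher, while 6 members were lower at an unadjusted p under 0.05, against 53.5% of all tested genes. The 5 called members are 31.3% of the 16 tested, near the 34.2% called lower among all tested genes, so the count does not set the family apart. Across the 16 tested members the median log2 fold change was -0.58, and across all tested genes it was -1.08. In 13 of the 23 members the mean FPKM was higher in zmte1-2, which is 56.5% of them, where 35.1% of all listed genes were higher. That count includes XTH24, the XTH30 gene GRMZM2G112198, expansin-A23 and expansin-B18, all untested and below 1 FPKM. It also includes XTH14 and XTH15, whose means were higher through zmte1-2 2 alone (490.46 and 269.46 FPKM). Of the 16 tested members 7 had a positive and 9 a negative log2 fold change, against 1299 and 2688 of all 3987 tested genes. The 3 zmte1-2 values were all below the 3 WT values in 7 members, against 48.8% of all listed genes, and above them in 2 members that were both below 1 FPKM, against 11.4%.

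**Figure D1:**
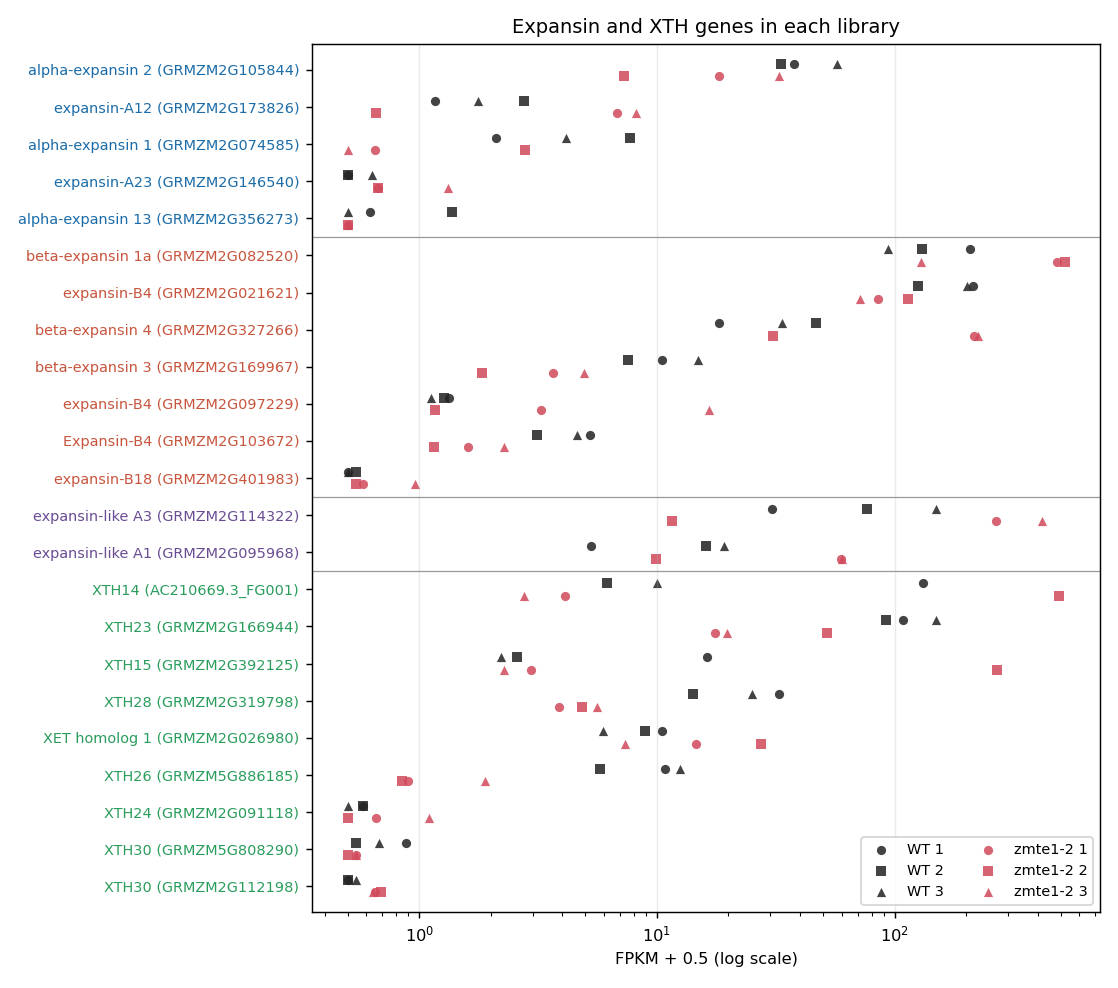
Each row is a member, grouped as alpha-expansins, beta-expansins, expansin-like genes and XTH genes, and each point is 1 library on a log axis of FPKM + 0.5 (black WT, red zmte1-2, the symbol gives the library number). XTH26 and XTH28 have red points far left of the black ones, whereas the square of zmte1-2 2 lies at 490 FPKM in XTH14 and at 11.1 FPKM in expansin-like A3, on opposite sides of the other zmte1-2 libraries.

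Whether these 5 members passed depended on single libraries, while their log2 fold changes stayed negative without any single library. Without WT 1, without WT 3 or without zmte1-2 1, none of the 5 members passed, and in the whole table the called genes shrank to 3.71%, 0.0502% and 0.0251% lower and 0.251%, 0.0251% and 0.0251% higher. At an unadjusted p under 0.05 from limma, 6, 5 and 5 members were lower there and 0 higher. Without zmte1-2 2, the library that stood apart, 7 members were lower and 4 higher, against 48.9% and 20.2% of all tested genes. Without zmte1-2 3, 4 members were lower and 1 was higher, against 17.6% and 1.86%. Median-of-ratios rescaling of the libraries shifted the median over all tested genes from -1.08 to -0.08 on the log2 scale. Its scaling factors came from the listed genes alone, which the authors had selected as changed and most of which were lower in zmte1-2. Such a shift is thus built into this scaling, and it cannot show whether a call that it removes is real. After it 2 members were lower, XTH26 and XTH28, and the signs of XTH14 and of the expansin-B4 gene GRMZM2G021621 were reversed. Of all tested genes 5.15% were then lower and 15.2% higher.

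Among the XTH genes the abundant or moderately abundant XTH23, XTH28 and XTH26 fell in zmte1-2, while the remaining 3 tested genes did not pass. The gene with the largest fall was GRMZM5G886185 (chromosome 5, 132694441 to 132695993), described as XTH26 and called XTH12 in the study's primer table. It stood at 10.34, 5.24 and 11.99 FPKM in WT 1 to 3 and at 0.40, 0.35 and 1.40 FPKM in zmte1-2 1 to 3. Every zmte1-2 library was below every WT library, and the mean was 12.8-fold lower. This is a log2 fold change of -3.02 (SE 0.48, adjusted p = 0.0127 by limma, n = 3 per genotype), and it was -2.14 after median-of-ratios rescaling (adjusted p = 0.0246 by limma). Without WT 1, WT 3 or zmte1-2 1 its log2 fold change was about as large (-2.90, -2.80 and -2.85), with a limma adjusted p of 0.0504, 0.0672 and 0.0722.

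XTH28 (GRMZM2G319798, chromosome 7, 107808137 to 107810770) was listed at 32.14, 13.75 and 24.61 FPKM in WT and at 3.37, 4.34 and 5.08 FPKM in zmte1-2. The zmte1-2 libraries lay close together and all below the lowest WT library, WT 2. The fall was 5.51-fold in the means, with a log2 fold change of -2.27 (SE 0.44, adjusted p = 0.0171 by limma), and without WT 1, WT 3 or zmte1-2 1 it lay between -2.19 and -2.01 with a limma adjusted p between 0.0649 and 0.0869. XTH23 (GRMZM2G166944, chromosome 5, 54200162 to 54202363), the most abundant XTH gene of WT nodes by its mean, was listed at 107.55, 91.97 and 148.41 FPKM in WT and at 17.04, 51.45 and 19.18 FPKM in zmte1-2. The groups did not overlap, but zmte1-2 2 stood 2.84-fold above the mean of the other zmte1-2 libraries. The log2 fold change of XTH23 was -2.12 (SE 0.53, adjusted p = 0.0288 by limma), and without WT 1, WT 3, zmte1-2 1 or zmte1-2 3 it lay between -2.16 and -1.84 with a limma adjusted p between 0.0609 and 0.122. After median-of-ratios rescaling XTH23 was no longer called (log2 fold change -0.97, adjusted p = 0.242 by limma).

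A pair of XTH genes, XTH14 and XTH15, was set by single libraries. XTH14 (AC210669.3_FG001, chromosome 8, 52843677 to 52844560) was listed at 131.16, 5.65 and 9.47 FPKM in WT and at 3.61, 490.46 and 2.25 FPKM in zmte1-2. It was high in WT 1 and zmte1-2 2 and low in the other 4 libraries, so that WT 1 was 17.3-fold above the mean of WT 2 and 3, and zmte1-2 2 was 167-fold above the mean of zmte1-2 1 and 3. XTH15 (GRMZM2G392125, chromosome 2, 11836452 to 11838001) had the same high libraries, with 15.78, 2.08 and 1.70 FPKM in WT and 2.44, 269.46 and 1.77 FPKM in zmte1-2. Over all tested genes the deviations of WT 1 and zmte1-2 2 from their genotype means correlated at 0.517. The pattern was thus partly shared across the table and is not particular to XTH14 and XTH15. In both genes the spread within a genotype exceeded the difference between genotypes, and neither was called. The log2 fold change was -0.18 for XTH14 (SE 2.12, adjusted p = 0.938 by limma) and 1.43 for XTH15 (SE 1.86, adjusted p = 0.491 by limma), with 95% intervals from -5.18 to 4.82 and from -2.96 to 5.82. Without WT 1 and zmte1-2 2 together XTH14 was called lower (log2 fold change -1.22, adjusted p = 0.0435 by limma), and XTH15 was at 0.12 (adjusted p = 0.756 by limma).

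XTH14 and XTH15 made up 47.8% of the summed XTH FPKM in WT 1 and 90.1% in zmte1-2 2, but between 5.53% and 14.6% in the other 4 libraries. The sum over the 9 XTH genes followed them, at 307, 127 and 202 FPKM in WT and 41.4, 843 and 37.3 FPKM in zmte1-2. Thus the XTH total was lower than in any WT library in zmte1-2 1 and 3, and higher than in any WT library in zmte1-2 2.

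Among the 8 listed JAZ/TIFY genes, repressors that jasmonate signalling induces after wounding, the 2 most abundant, GRMZM2G036351 and GRMZM2G145458, were also high in these libraries. Together they came to 380 FPKM, 66.1 FPKM and 19 FPKM in WT and 138 FPKM, 802 FPKM and 96.3 FPKM in zmte1-2, and they carried most of the sum over the list, which was 429, 117 and 58.3 FPKM in WT and 205, 955 and 127 FPKM in zmte1-2. The other 6 summed to 49.1, 50.6 and 39.3 FPKM in WT and 67.4, 153 and 30.5 FPKM in zmte1-2. That sum had no high WT 1, but the genes in it differed. TIFY 10b (AC197764.4_FG003) was lowest in WT 1 (2.51, 27.77 and 31.22 FPKM in WT). GRMZM2G343157 (26.18, 8.8 and 4.18 FPKM in WT, 19.24, 93.14 and 7.58 FPKM in zmte1-2) was highest in WT 1 and zmte1-2 2 within each genotype. So was TIFY 5A (AC187560.5_FG003), at 15.56, 8.03 and 0 FPKM in WT and 29.62, 34.49 and 3.66 FPKM in zmte1-2. Of these genes 6 were tested and none was called by limma (1 was higher at an unadjusted p under 0.05). In 6 of the 8 zmte1-2 2 was the highest zmte1-2 library, and in 5 WT 1 was the highest WT library, against 40.6% and 49.7% of all listed genes, so the count for WT 1 is not far from that of the table. The part of this response in the XTH14 and XTH15 values was not tested.

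The maize xyloglucan endotransglycosylase homolog 1 (GRMZM2G026980, chromosome 5, 53934855 to 53936718) was listed at 10.02, 8.43 and 5.46 FPKM in WT and at 14.17, 26.94 and 6.82 FPKM in zmte1-2. The groups overlapped through zmte1-2 3, and the gene was not called (log2 fold change 0.80, SE 0.56, 95% interval -0.53 to 2.13, adjusted p = 0.229 by limma). The remaining 3 XTH genes, XTH24 (GRMZM2G091118) and a pair described as XTH30 (GRMZM5G808290 and GRMZM2G112198), did not exceed 0.6 FPKM in any library and were not tested. XTH24 lies 3.3 kb from XTH15 on chromosome 2. At 0.08, 0.08 and 0 FPKM in WT and 0.16, 0 and 0.6 FPKM in zmte1-2 it was too low to be compared with XTH15.

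The 7 further genes with a xyloglucan:xyloglucosyl transferase orthology were all tested. Of these 3 fell (42.9%), against 34.2% of all tested genes, and so few genes cannot be set apart from that share. GRMZM2G180870 had the largest fall of all 40 genes, with 171.6, 44.74 and 93.17 FPKM in WT and 6.1, 5.04 and 10.78 FPKM in zmte1-2 (log2 fold change -3.60, SE 0.59, adjusted p = 0.0127 by limma). It was not called without WT 3 or zmte1-2 1, at log2 fold changes of -3.57 and -3.51 (limma adjusted p of 0.0677 and 0.0722). GRMZM2G118579 (21.09, 10.18 and 18.1 FPKM in WT, 1.34, 1.07 and 2.39 FPKM in zmte1-2) and GRMZM2G039919 (45.69, 14.08 and 32.63 FPKM in WT, 2.75, 4.92 and 3.21 FPKM in zmte1-2) were also lower, by 10.3-fold and 8.49-fold in the means. In each of these 3 genes the zmte1-2 libraries lay below all WT libraries, and WT 2 was the lowest WT library. The remaining 4 were not called, and among them GRMZM2G413006, which lies 70.5 kb from the xyloglucan endotransglycosylase homolog 1 gene, was high in WT 1 (10.5 FPKM) and zmte1-2 2 (36.09 FPKM) like XTH14.

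By orthology the 16 XTH genes divide into 6 that the table assigns to the TCH4 class, named after a touch-induced XTH of Arabidopsis, and 10 that carry the general transferase class alone. Of the 5 tested TCH4-class genes, 1 was called lower, XTH23, and zmte1-2 2 was the highest zmte1-2 library in all 5, from 2.57-fold to 167-fold above the mean of the other 2. Of the 8 tested genes without this class, 5 were lower and zmte1-2 2 was highest in 2. Among all tested genes 34.2% were called lower, and zmte1-2 2 was the highest zmte1-2 library in 40.6% of all listed genes. Both classes hold few genes, and no difference from these shares was tested. The median log2 fold change was 0.24 in the TCH4 class and -2.54 in the others, as a description of these genes that was not tested. The TCH4 median rested on zmte1-2 2. Without that library the log2 fold changes were -2.62 for XTH23, -2.58 for XTH14, -1.03 for GRMZM2G413006, -0.81 for XTH15 and 0.33 for xyloglucan endotransglycosylase homolog 1. Those of the other 8 genes then ran from -3.38 to 1.16.

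Chlorophyll a-b binding protein genes, markers of green leaf tissue, differed between the same libraries. Of the 14 listed, GRMZM2G018627 and GRMZM2G414192 have identical coordinates and values and were counted once, which leaves 13. All 13 had a lower mean in zmte1-2, as did 3600 of the 5546 listed genes. Of the 11 that were tested 6 were called lower, against 34.2% of all tested genes. The summed FPKM of the 13 genes was 557, 138 and 278 in WT and 78.5, 105 and 95.5 in zmte1-2. WT 1 was the highest WT library for this sum and WT 2 the lowest, as for XTH28, GRMZM2G180870, GRMZM2G039919 and GRMZM2G118579. In XTH23 and XTH26, which were also called lower, WT 3 was the highest WT library. Over all listed genes WT 1 was the highest WT library in 49.7%. The meristem marker KN1 (GRMZM2G017087), which was present in all libraries, was listed at 142.66, 75.29 and 108.02 FPKM in WT and at 35.33, 81.65 and 16.97 FPKM in zmte1-2, and it was not called (log2 fold change -1.51, adjusted p = 0.0756 by limma). Without zmte1-2 2 KN1 was called lower (log2 fold change -2.08, adjusted p = 0.0122 by limma), as it was without WT 1 and zmte1-2 2 together (-1.86, adjusted p = 0.0189 by limma). The part of leaf or meristem content in the XTH differences was not tested.

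None of the alpha-expansins was called by limma in the 6 libraries, and 1 was lower at an unadjusted p under 0.05. Alpha-expansin 2 (GRMZM2G105844, chromosome 5, 206888609 to 206890560), the most abundant of them, was listed at 37.13, 32.85 and 56.94 FPKM in WT and at 17.77, 6.78 and 32.12 FPKM in zmte1-2. All zmte1-2 libraries were below all WT libraries, although zmte1-2 3 was within 1 FPKM of WT 2. With a log2 fold change of -1.35 it was not called (SE 0.61, 95% interval -2.80 to 0.09, adjusted p = 0.0899 by limma).

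Alpha-expansin 1 (GRMZM2G074585, chromosome 10, 99487994 to 99489313) was listed at 1.61, 7.23 and 3.64 FPKM in WT and at 0.15, 2.28 and 0 FPKM in zmte1-2. Only zmte1-2 2 reached the WT range, and the log2 fold change was -2.07 (SE 0.75, adjusted p = 0.0583 by limma). Without zmte1-2 2 alpha-expansin 1 was called lower (log2 fold change -2.84, adjusted p = 0.00716 by limma). Expansin-A12 (GRMZM2G173826, chromosome 1, 11848501 to 11849541) went the other way in the same libraries, with 0.67, 2.26 and 1.27 FPKM in WT and 6.29, 0.16 and 7.65 FPKM in zmte1-2. It was high in zmte1-2 1 and 3 and lowest of all 6 libraries in zmte1-2 2. The log2 fold change of expansin-A12 was 0.89 with all libraries (SE 0.96, adjusted p = 0.412 by limma) and 2.06 without zmte1-2 2 (adjusted p = 0.00967 by limma). The remaining alpha-expansins, expansin-A23 (GRMZM2G146540) and alpha-expansin 13 (GRMZM2G356273), stayed below 1 FPKM in all libraries and were not tested, the latter being listed at 0 in all 3 zmte1-2 libraries.

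Beta-expansins were the most abundant family by summed FPKM in 4 of the 6 libraries, and 2 of the 5 tested genes fell, both at low levels. Beta-expansin 3 (GRMZM2G169967, chromosome 5, 188877085 to 188881793) was listed at 10.05, 7.05 and 14.37 FPKM in WT and at 3.14, 1.34 and 4.42 FPKM in zmte1-2. Its groups did not overlap, and the log2 fold change was -1.72 (SE 0.50, adjusted p = 0.0381 by limma). The Expansin-B4 gene GRMZM2G103672 (chromosome 1, 251197737 to 251199346) was listed at 4.73, 2.62 and 4.10 FPKM in WT and at 1.11, 0.65 and 1.78 FPKM in zmte1-2. The zmte1-2 libraries were again all below WT, with a log2 fold change of -1.38 (SE 0.39, adjusted p = 0.0363 by limma). Neither of these beta-expansins was called after median-of-ratios rescaling (limma adjusted p of 0.398 and 0.42) or without WT 1, WT 3 or zmte1-2 1 (limma adjusted p between 0.104 and 0.137), where the log2 fold changes lay between -1.81 and -1.48 for beta-expansin 3 and between -1.38 and -1.23 for GRMZM2G103672.

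The abundant beta-expansins were not called. Beta-expansin 1a (GRMZM2G082520, chromosome 9, 116378674 to 116380544) was listed at 206.24, 130.5 and 93.36 FPKM in WT and at 484.07, 518.87 and 128.23 FPKM in zmte1-2. It was high in zmte1-2 1 and 2, while zmte1-2 3 lay within the WT range (log2 fold change 1.22, SE 0.66, 95% interval -0.33 to 2.78, adjusted p = 0.133 by limma). Without zmte1-2 3 it was called higher (log2 fold change 1.88, adjusted p = 0.0494 by limma). The expansin-B4 gene GRMZM2G021621 (chromosome 1, 91256138 to 91259053) was listed at 213.29, 124.73 and 200.88 FPKM in WT and at 84.59, 113.29 and 70.95 FPKM in zmte1-2. Although all zmte1-2 libraries were lower, the limma adjusted p was 0.0797 (log2 fold change -0.99, SE 0.42), and it was 0.043 without zmte1-2 2. Its direction reversed after median-of-ratios rescaling, to a log2 fold change of 0.17.

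Beta-expansin 4 (GRMZM2G327266, chromosome 5, 192213992 to 192216044) was listed at 17.72, 46.12 and 32.95 FPKM in WT and at 214.61, 30.35 and 224.82 FPKM in zmte1-2. In zmte1-2 1 and 3 it was several-fold above every WT library, and in zmte1-2 2 it was within the WT range. Beta-expansin 4 had a log2 fold change of 1.91 with all libraries (SE 0.85, adjusted p = 0.0863 by limma) and 2.85 without zmte1-2 2 (adjusted p = 0.00598 by limma). A gene with expansin orthology 4.0 kb away, GRMZM2G056236, had the same high libraries, with 9.89, 31.46 and 20.02 FPKM in WT and 76.05, 6.61 and 73.67 FPKM in zmte1-2. The beta-expansins that were not tested were another expansin-B4 gene, GRMZM2G097229, at 0.84, 0.77 and 0.62 FPKM in WT and 2.77, 0.66 and 16.06 FPKM in zmte1-2, and expansin-B18 (GRMZM2G401983), which did not exceed 0.46 FPKM.

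Both expansin-like genes were tested and neither was called by limma, at the adjusted threshold or at an unadjusted p under 0.05. Expansin-like A3 (GRMZM2G114322, chromosome 2, 199829378 to 199831770) was listed at 29.96, 76.06 and 148.53 FPKM in WT and at 267.9, 11.07 and 415.73 FPKM in zmte1-2. The highest values were in zmte1-2 1 and 3 and the lowest of all in zmte1-2 2, which was 30.9-fold below the mean of the other zmte1-2 libraries. The log2 fold change of expansin-like A3 was 0.63 (SE 1.37, adjusted p = 0.675 by limma), and without zmte1-2 2 it was 2.25 (adjusted p = 0.0235 by limma). Expansin-like A1 (GRMZM2G095968, chromosome 1, 7353116 to 7355434) was listed at 4.79, 15.66 and 18.75 FPKM in WT and at 58.79, 9.43 and 59.55 FPKM in zmte1-2. Again zmte1-2 1 and 3 were above all WT libraries and zmte1-2 2 was not. The log2 fold change of expansin-like A1 was 1.48 (SE 0.86, adjusted p = 0.157 by limma), and without zmte1-2 2 it was 2.34 (adjusted p = 0.0146 by limma). WT 1 was the lowest WT library in both genes.

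**Figure D2:**
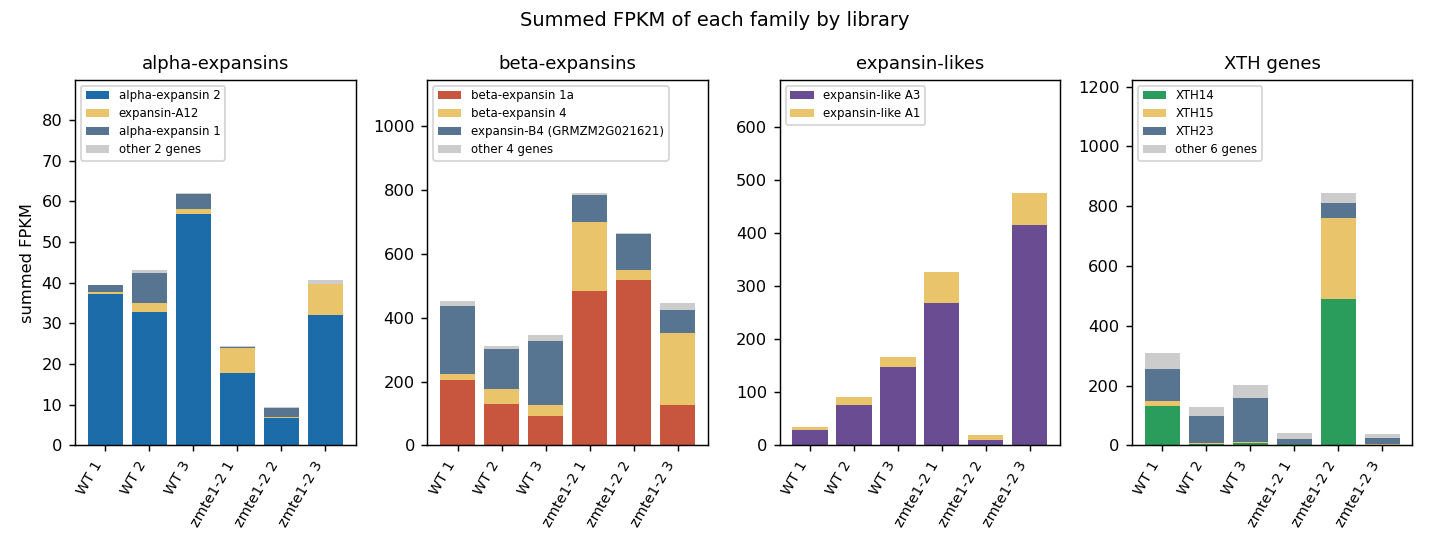
Bars give the summed FPKM of each family in each library from 0, each panel with its own axis, and the colours give the 3 most abundant genes and the rest. XTH14 and XTH15 fill the XTH bar of zmte1-2 2 (843 FPKM), whereas the expansin-like bar of that library is the lowest of the 6 (20.5 FPKM).

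Of the 10 further genes with an expansin orthology 7 were tested. Of these 3 fell and 1 rose, against 34.2% lower and 6.02% higher among all tested genes. GRMZM2G368886 was listed at 41.91, 36.62 and 56.22 FPKM in WT and at 12.07, 15.24 and 7.99 FPKM in zmte1-2, with all zmte1-2 libraries below WT (log2 fold change -1.91, SE 0.41, adjusted p = 0.0215 by limma). GRMZM2G078279 and AC219190.3_FG002 were also lower, with log2 fold changes of -1.72 and -1.39 (adjusted p = 0.037 and 0.0395 by limma). GRMZM2G342246 was called higher, from 2.78, 5.85 and 3.13 FPKM in WT to 16.1, 7.37 and 34.7 FPKM in zmte1-2 (log2 fold change 1.98, SE 0.61, adjusted p = 0.0441 by limma). Even there zmte1-2 2 was the lowest zmte1-2 library, and the call was lost with no FPKM minimum (adjusted p = 0.0524 by limma) and without any single library other than zmte1-2 2 (log2 fold change 1.43 to 2.27, limma adjusted p between 0.057 and 0.139). Of the 6 orthology genes called lower, XTH and expansin together, 0 passed in limma without WT 3 or without zmte1-2 1, 2 passed without WT 1, 4 without zmte1-2 3 and 3 after median-of-ratios rescaling. Over named and orthology genes together, 30 of 40 were tested, and 11 were lower (36.7%) and 1 higher (3.33%). These shares are near the 34.2% and 6.02% of all tested genes.

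The families are set side by side here by counts and medians, and no difference between them was tested. Of all tested genes 34.2% were called lower, and the counts are too small to set a family apart from that share. Of the tested XTH genes 3 of 6 were lower, with a median log2 fold change of -1.15. Of the tested beta-expansins 2 of 5 were lower, with a median of -0.99, and of the tested alpha-expansins 0 of 3, with a median of -1.35. The median of the 2 expansin-like genes was 1.05, and that of the 10 tested expansins of all kinds was -0.18, against -1.08 for all tested genes. In each family the log2 fold changes ran from negative to positive except in the expansin-like genes, where both were positive with all 6 libraries and that of expansin-like A3 turned negative without zmte1-2 1 (-0.02) or without zmte1-2 3 (-0.34).

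**Figure D3:**
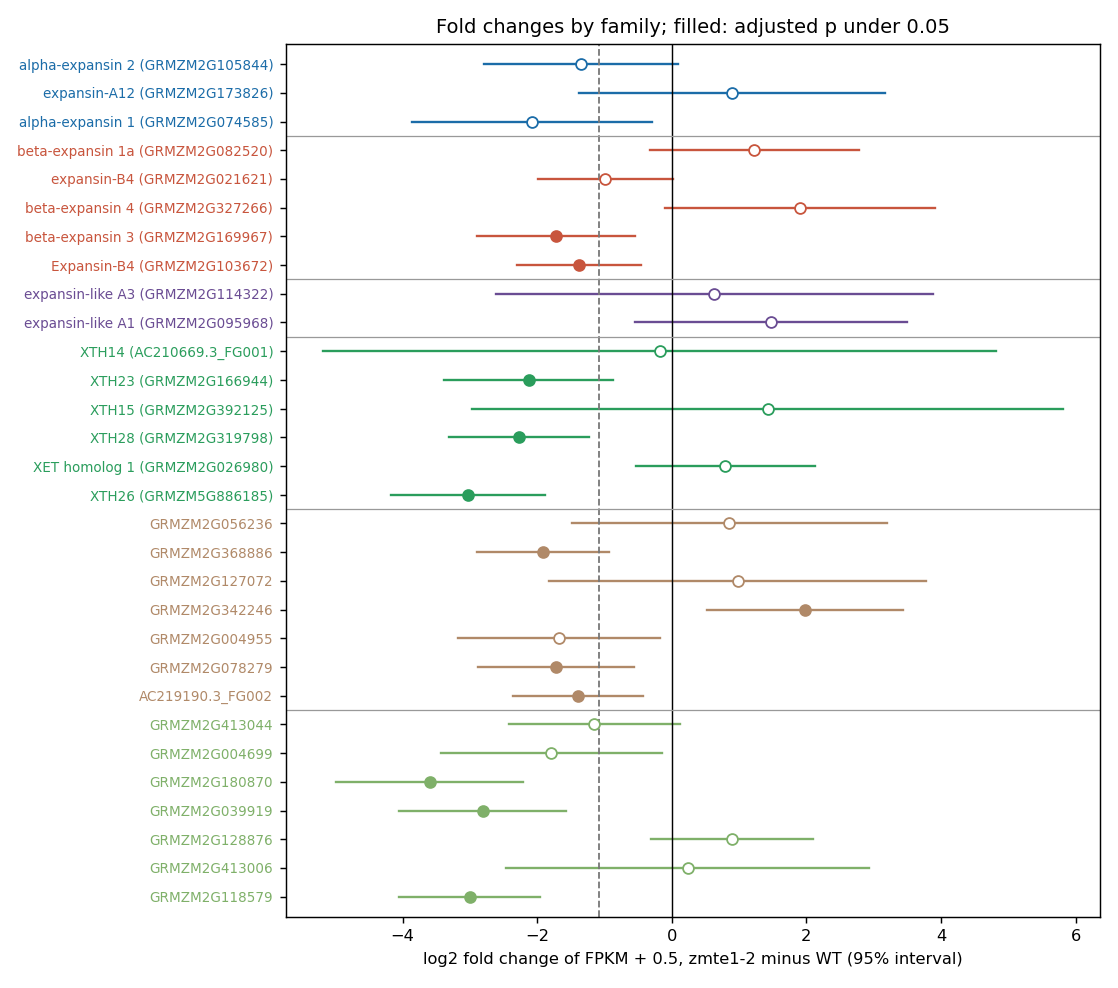
Points are log2 fold changes of FPKM + 0.5 in zmte1-2 against WT with 95% intervals from limma for the 16 tested members and the 14 tested orthology genes, filled where the adjusted p is under 0.05. The dashed line marks the median of all tested genes (-1.08), and XTH14 and XTH15 have the widest intervals among the members, from -5.18 to 4.82 and from -2.96 to 5.82.

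The place of zmte1-2 2 among the libraries of its genotype was counted in each family, without a test. It was the lowest of the zmte1-2 libraries in 9 of the 14 expansins and expansin-like genes and the highest in 3, while among the 9 XTH genes it was the highest in 5 and the lowest in 3. Over all listed genes zmte1-2 2 was highest in 40.6% and lowest in 40.6%. Without zmte1-2 2 the 4 members called higher were expansin-A12, beta-expansin 4, expansin-like A3 and expansin-like A1, and the same number was called higher without WT 1 and zmte1-2 2 together, where 6 members were lower. In that smaller comparison 44.8% of all tested genes were lower and 18.9% higher, and the Expansin-B4 gene GRMZM2G103672 no longer passed (adjusted p = 0.0605 by limma).

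**Figure D4:**
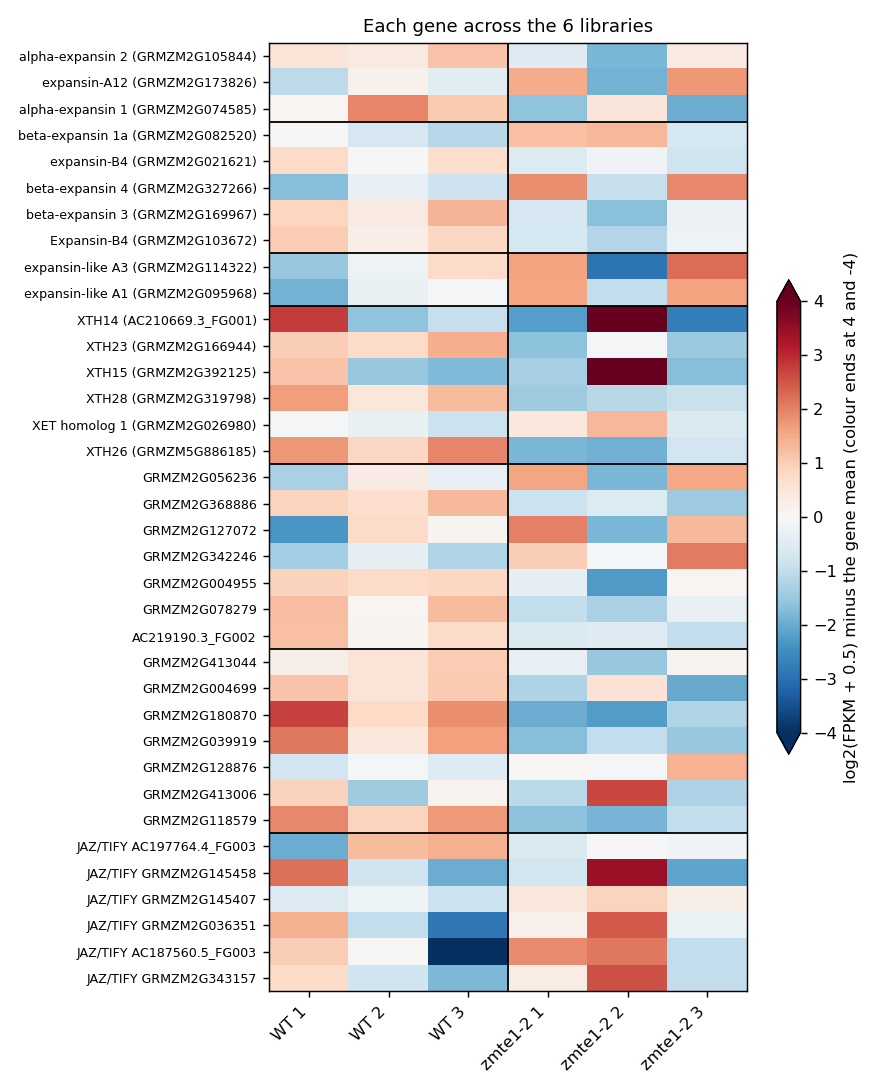
Each cell gives the log2(FPKM + 0.5) of a tested gene in a library minus the mean of that gene over the 6 libraries (red above, blue below, with colours ending at 4 and -4), for members, orthology genes and JAZ/TIFY genes. XTH14 and XTH15 are red in WT 1 and zmte1-2 2, as is GRMZM2G413006, while expansin-like A3 and A1, expansin-A12 and beta-expansin 4 are red in zmte1-2 1 and 3 and blue in zmte1-2 2.

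Other genes that act on the same polymers were few in the table. Of 6 genes described for xyloglucan synthesis 2 were tested, and probable xyloglucan glycosyltransferase 1 (GRMZM2G027794), which builds the glucan backbone, fell from 11.85, 11.09 and 11.96 FPKM in WT to 4.83, 6.12 and 5.74 FPKM in zmte1-2 (log2 fold change -1.01, SE 0.34, adjusted p = 0.0498 by limma). The most abundant of them, probable xyloglucan glycosyltransferase 9 (GRMZM2G028286), stood at 43.81, 23.23 and 27.39 FPKM in WT and 14.08, 184.51 and 10.98 FPKM in zmte1-2. It was thus highest in zmte1-2 2 and, within WT, in WT 1, like XTH14 and XTH15, and it was not called (log2 fold change 0.03, adjusted p = 0.981 by limma). No plasma membrane proton pump was listed, and the single gene listed for mixed-linkage glucan (CSLF3, GRMZM2G339645) was not tested.

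Endo-glucanases, which cut beta-1,4-glucan chains, had 7 listed genes, and 5 were tested. Of these 3 fell and 1 rose, against 34.2% lower and 6.02% higher among all tested genes. Endoglucanase 24 (GRMZM2G048165) fell from 2.71, 1.84 and 3.83 FPKM to 0.25, 0.46 and 0.31 FPKM (log2 fold change -1.93, SE 0.31, adjusted p = 0.0127 by limma), and the endoglucanase 19-like gene GRMZM2G009025 fell with a log2 fold change of -1.79 (SE 0.31, adjusted p = 0.0143 by limma). The gene described as endoglucanase 12, AC199765.4_FG008, was the most abundant, at 16.31, 77.94 and 107.42 FPKM in WT and 223.33, 27.07 and 232.22 FPKM in zmte1-2. It was high in zmte1-2 1 and 3 and low in WT 1 and zmte1-2 2, like the expansin-like genes, and it was not called (log2 fold change 1.11, SE 1.05, adjusted p = 0.354 by limma).

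Brassinosteroids promote cell elongation and induce XTH genes in soybean and Arabidopsis. By description alone, 5 listed genes were a brassinosteroid receptor, a brassinosteroid receptor kinase or the BRI1-associated kinase. Their KEGG orthologies differed, and a function in brassinosteroid perception was not tested. All 5 genes were tested with limma and had a lower mean in zmte1-2, as did 3600 of the 5546 listed genes. Of the 5 genes 3 were called lower, against 34.2% of all tested genes, and so few genes cannot be set apart from that share. The receptor kinase gene GRMZM2G048294 fell from 35.36, 22.31 and 25.43 FPKM to 7.1, 14.11 and 9.8 FPKM (log2 fold change -1.40, SE 0.42, adjusted p = 0.0407 by limma), and GRMZM2G118939, described as the BRI1-associated kinase, fell with a log2 fold change of -1.16 (SE 0.37, adjusted p = 0.0463 by limma). The most abundant of them, GRMZM2G172330, was listed at 50.03, 34.41 and 40.01 FPKM in WT and at 10.58, 25.89 and 11.79 FPKM in zmte1-2 and was also lower (log2 fold change -1.44, SE 0.47, adjusted p = 0.0475 by limma). In 4 of the 5 genes zmte1-2 2 was the highest zmte1-2 library, as in XTH23, against 40.6% of all listed genes.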

How the data were processed

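RNA-seq of 3 WT and 3 zmte1-2 libraries was analysed from the table of 5546 genes that the authors deposited as FPKM, with coordinates and protein descriptions. It lists genes that the authors called, and other genes were not analysed here. The sources used here do not name the aligner, the counter, the annotation, the genome build or the use of strand in counting. The depth of the libraries is unknown, since whole reads could not be recovered from FPKM given to 2 decimals, so no counting interval is given. The table's length column equals the genomic span in 100% of genes, and whether FPKM used it is not known, so levels are compared between genes only as deposited. The authors' fold changes, p-values and q-values and 9 columns that compare single libraries were not used. RNA was extracted with an RNeasy kit by the labels and with TRIzol by the Methods, and the mutant is also spelt zmet1 in the labels and named after the line zm66 in the table, where columns were matched by node number.

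The two-sided test described above used lmFit and eBayes with a trend from limma 3.58.1 (R 4.3.3) and was tested on simulated data. Fold changes on this scale understate the change of low genes. Members, gene lists, tests and alternatives were chosen with earlier results of these data known. Genes were named with values if called, if among the 3 most abundant of a family, if the groups did not overlap at a mean of at least 5 FPKM, or if in the study's primer table. In other lists the called genes with the 2 smallest p and the most abundant were named. Orthology genes and low genes named beyond this were chosen after their values were seen. Of the 23 members 15 matched a RefSeq record (assembly Zm-B73-REFERENCE-NAM-5.0), used for names only, and none shared its values with another row. No pair of libraries had identical values in more than 1.76% of genes. Alternatives were other pseudocounts, filters, scaling and variance models, a replicate block, libraries left out and membership by orthology.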

Additional observations from a re-analysis of the deposited data

How the results depend on the processing

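Other pseudocounts (0.1 and 1), no FPKM minimum, no mean-variance trend, robust eBayes and leaving out WT 2 kept all 5 member calls and added none. With a minimum of 5 FPKM, 4 members were lower, including 1 beta-expansin, as the Expansin-B4 gene GRMZM2G103672 was no longer tested, and 782 genes in all were lower. Median-of-ratios rescaling, with factors taken from the listed genes alone, left 2 members lower, 0 of them beta-expansins, with 200 genes lower and 590 higher in all. It gave log2 fold changes of 0.91 for XTH14 (AC210669.3_FG001) and 0.17 for GRMZM2G021621. With the replicate number as a block, 0 members, 0 beta-expansins, 0 XTH genes and 0 related wall genes were called in either direction, and 1 gene in all was lower and 1 higher (limma, 6 members lower and 0 higher at an unadjusted p under 0.05). Same-numbered libraries deviated from their genotype means with correlations of -0.305, -0.398 and 0.406, and WT 1 and zmte1-2 2 with a correlation of 0.517. These describe genes, which are not replicates, and cannot show whether the numbers pair the libraries. Leaving out 1 library each in turn gave 0 to 7 members lower and 0 to 4 higher (alpha-expansins 0 to 1 lower and 0 to 1 higher, beta-expansins 0 to 3 lower and 0 to 1 higher, expansin-like genes 0 to 2 higher, XTH genes 0 to 3 lower), with 1 to 1949 genes lower and 1 to 805 higher in all. The log2 fold change of XTH14 then ranged from -2.58 to 1.18, being positive without WT 1 (1.18), zmte1-2 1 (0.87) or zmte1-2 3 (1.16), that of XTH15 (GRMZM2G392125) from -0.81 without zmte1-2 2 to 2.64, and that of expansin-like A3 (GRMZM2G114322) from -0.34 without zmte1-2 3 to 2.25, with -0.02 without zmte1-2 1. Without WT 1 and zmte1-2 2 together, 4 members were higher (1 alpha-expansin, 1 beta-expansin and 2 expansin-like genes), 1 alpha-expansin and 1 beta-expansin were lower, and 755 genes in all were higher. Of the 14 related wall genes 4 were lower and 1 higher. This became 2 lower with no minimum or with 5 FPKM, 1 lower after rescaling, 2 higher without WT 1 and zmte1-2 2, and from 0 to 5 lower and 0 to 2 higher without single libraries. Membership also by orthology gave 11 lower, 1 higher and 6 XTH genes lower, where 34.2% of all tested genes were lower and 6.02% higher. Of the orthology genes, with the block, 0 were called. Except where a setting removes genes or libraries, the cause was not tested. With 3 libraries per genotype and unknown depth, values under 1 FPKM could not be compared.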
